A study of Mus musculus with 6 samples.

Results

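Collagens are the main structural proteins of the extracellular matrix, and the genes described here encode their alpha chains. They were chosen as the rows of the deposited expression table whose symbol reads Col, a number, the letter a and a number, which gave 44 of the 26329 genes in the table. RNA sequencing was done on mouse ovaries kept in culture, in 3 libraries of ovaries given ISRIB and 3 libraries of ovaries given DMSO, called Control. ISRIB is a small molecule that blocks the integrated stress response by restoring the activity of the translation factor eIF2B, and DMSO is the solvent. The study asked how this response bears on the activation of primordial follicles, the resting follicles of the ovary. The dose, the length of culture and the strain and age of the ovaries' donors of these 6 libraries were not given in the sources used here. Nor do the labels say if each replicate was a culture or an animal of its own, so a p-value here speaks of the spread between these libraries, which can be technical.

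Each collagen chain winds with others into a triple helix, and the helix forms where glycine opens each Gly-X-Y triplet of the chain. Fibrillar collagens make the rope-like fibrils of stroma, FACIT collagens sit on the surface of those fibrils, type IV collagen forms the sheet of basement membranes, the multiplexins anchor basement membranes to the matrix around them, and type VI collagen forms beaded filaments near cells. In the ovary a basement membrane surrounds each follicle and each vessel, and fibrillar collagen fills the stroma between them.

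The triplet repeat can be read in the coding sequence, and stretches of 6 chains are given here. Each is 54 bases long and read 5′ to 3′ on the coding strand. Except for Col4a1, each is a single exon of 54 bases, and the capitals mark the glycine codon that opens each triplet. Each such exon was picked as the first of that length where glycine opens every triplet. The stretches therefore show the repeat and do not compare the classes. The Col4a1 stretch joins 3 exons and was chosen to show an interruption, where 2 codons break the register. All were read from the longest coding transcript of the GENCODE M21 annotation, on GRCm38 (mm10), and codons are counted from the start codon.
Col3a1: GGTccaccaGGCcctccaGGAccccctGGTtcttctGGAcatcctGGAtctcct
Col1a1: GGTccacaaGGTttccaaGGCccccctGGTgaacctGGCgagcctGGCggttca
Col4a1: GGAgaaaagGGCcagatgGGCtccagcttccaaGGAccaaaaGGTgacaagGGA
Col15a1: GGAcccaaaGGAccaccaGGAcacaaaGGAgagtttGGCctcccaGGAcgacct
Col12a1: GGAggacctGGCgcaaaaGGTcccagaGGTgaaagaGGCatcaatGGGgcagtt
Col6a1: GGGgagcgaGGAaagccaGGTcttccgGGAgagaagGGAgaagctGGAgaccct
The Col3a1 stretch lies at chr1:45325360-45325413 on the plus strand and holds codons 176 to 193. The Col1a1 stretch lies at chr11:94939904-94939957 on the plus strand (codons 186 to 203), and that of Col4a1 at chr8:11241206-11242790 on the minus strand (codons 215 to 232, introns included in the positions). The Col15a1 stretch lies at chr4:47292320-47292373 on the plus strand (codons 879 to 896). The Col12a1 stretch lies at chr9:79614349-79614402 on the minus strand (codons 2758 to 2775), near the end of the chain, and that of Col6a1 at chr10:76719623-76719676 on the minus strand (codons 268 to 285).

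The length of the unbroken repeat separated the fibrillar chains from the rest. In 9 of the 11 fibrillar genes the longest run of glycine-first triplets was 337 to 344 triplets, and in Col24a1 and Col27a1 it was 216 and 217. The longest run in any other collagen gene was 113 triplets. Col4a1 and Col4a2 held nearly as large a share of their codons in runs of at least 5 triplets, 61.5% and 72.4%, as Col3a1 with 73.2%, but broken into 16 and 22 runs. Col12a1 stood at the other end: 7.6% of its 3065 codons lay in such runs. The multiplexins Col15a1 and Col18a1 held 23.9% and 27.9% of their codons in short runs of at most 30 triplets.

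**Figure D1:**
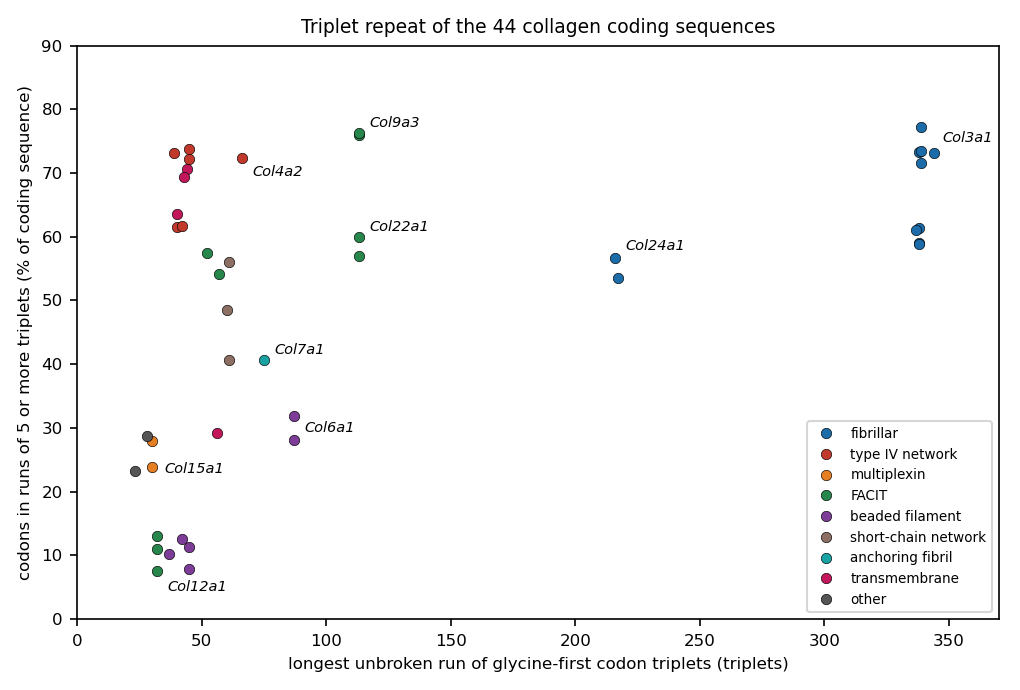
Each point is 1 of the 44 collagen genes, coloured by class, with the longest unbroken run of glycine-first triplets on the x axis (triplets) and the share of codons in runs of 5 or more triplets on the y axis (%). Fibrillar genes lie at 216 triplets or more, type IV genes reach a like share in runs of at most 66 triplets, and Col12a1 lies lowest at 7.6%.

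Levels are FPKM, read numbers scaled for gene length and library size, so they can be compared between genes as levels per length. The libraries held 35679814 to 36834799 reads in ISRIB and 34474821 to 38002135 reads in Control, recovered from the FPKM themselves. Collagen genes took 1.77%, 1.74% and 1.89% of the reads in ISRIB and 1.82%, 1.78% and 1.87% in Control. Their summed FPKM was 3004 ± 142 in ISRIB and 3033 ± 80.2 in Control (SD, n = 3 each), a difference within the spread of the libraries. The ovary label was checked on Foxl2, a granulosa transcription factor, which had 148 ± 13.5 FPKM in ISRIB and 148 ± 5.48 FPKM in Control, and on the germ cell helicase Ddx4, which had 16.2 ± 0.442 FPKM in ISRIB and 16.0 ± 0.196 FPKM in Control.

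Over all 6 libraries, 6 genes made up 73.2% of the collagen FPKM. The fibrillar gene Col3a1 came first with a mean of 536 FPKM, place 62 among all genes in the table, and each of its libraries lay above every library of the next gene. Col6a1 (413), Col1a2 (367), Col6a2 (319), Col1a1 (301) and Col4a1 (274) followed, and each overlapped its neighbour in this order across libraries. Col5a1 (176) and Col4a2 (172) also overlapped each other and lay apart from those above and below. Col18a1 (67.6), Col15a1 (67.3) and Col6a3 (58.0) formed the next group, whose ranges overlapped.

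At the low end, 8 genes had a mean under 1 FPKM and were not tested. Col2a1, the fibrillar collagen of cartilage, had 2, 5 and 5 reads in ISRIB and 2, 3 and 0 in Control. Col10a1, the collagen of hypertrophic cartilage, had 1 read in ISRIB replicate 2, 1 in Control replicate 1 and 0 elsewhere, which is under the limit of 3 reads that a count of 0 allows. The cartilage FACIT Col9a1 had 7, 7 and 2 reads in ISRIB and 8, 34 and 28 in Control. All 3 ISRIB libraries lay below all 3 Control libraries for Col9a1, at depths where few reads separate replicate 1 of each group. The other 5 were Col4a3, Col17a1, Col19a1, Col22a1 and Col28a1, with 7 to 252 reads a library.

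The comparison of ISRIB with Control covered the other 36 collagen genes, among 12922 genes with a mean of at least 1 FPKM. No collagen gene passed an adjusted p of 0.05 (limma on log2(FPKM + 0.5), Benjamini-Hochberg over all tested genes), against a background of 0.0% of all tested genes, the smallest adjusted p of any gene being 0.0608. The next measure is therefore the unadjusted p. At an unadjusted limma p under 0.05, 8 collagen genes (22.2%) were lower in ISRIB, where 7.73% of all tested genes were, and 1 (2.78%) was higher, where 8.71% were. The 8 were Col3a1, Col4a1, Col4a2, Col6a6, Col12a1, Col14a1, Col15a1 and Col18a1, and the higher gene was Col11a2. In those 8 and in Col8a2 all ISRIB libraries lay below all Control libraries, 25.0% of the tested collagen genes against 12.0% of all tested genes. All ISRIB libraries lay above all Control libraries for Col11a2, 2.78% of the tested collagen genes against 10.8% of all.

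With FPKM as deposited, the collagen genes as a family were not lower. Their median log2 fold change was -0.02, beside 0.01 for all tested genes, and 19 of 36 (52.8%) had a value below 0, against 48.2% of all tested genes. After quantile normalization 24 of the 36 were below 0, with a median of -0.05 beside -0.01 for all tested genes. After rescaling to a common sum 21 were, with a median of -0.07 beside -0.04 for all tested genes. FPKM summed over all genes were higher in ISRIB, at 348086 to 350176, than in Control, at 333172 to 339809. After removal of the length trend described further on, 16 of the 36 were below 0, beside 51.4% of all tested genes. Fold changes here are ISRIB over Control on the log2(FPKM + 0.5) scale, which understates the change of genes at a few FPKM.

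**Figure D2:**
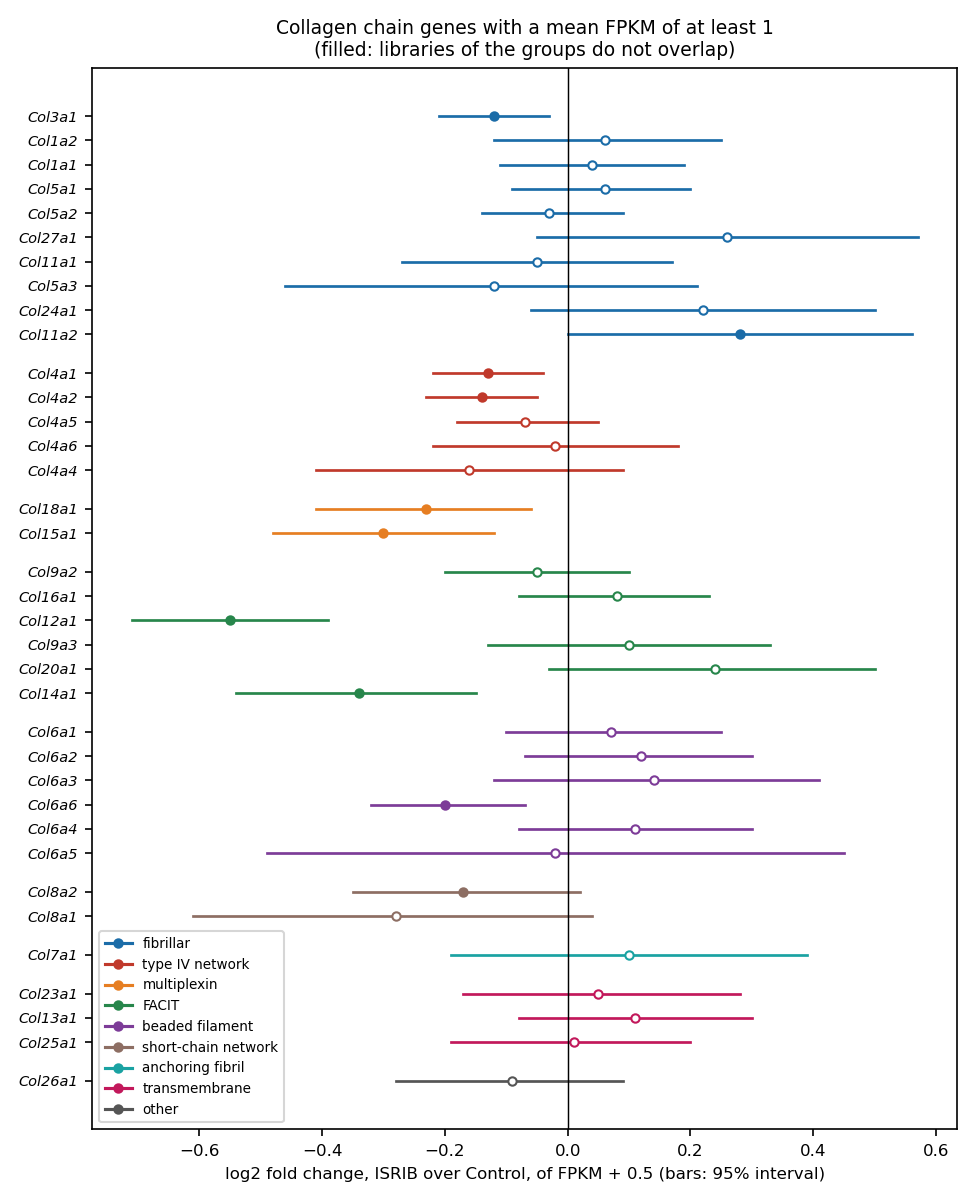
Log2 fold change of ISRIB over Control (x axis, FPKM + 0.5) with its 95% interval for the 36 tested collagen genes, grouped and coloured by class, with filled points where the libraries of the groups do not overlap. All type IV, multiplexin and short-chain points lie below 0, Col12a1 lies furthest left at -0.55, and fibrillar genes spread from -0.12 to 0.28.

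The fibrillar genes are the first class by level, at 1394, 1418 and 1520 summed FPKM in ISRIB and 1440, 1422 and 1501 in Control. Col3a1, the homotrimeric fibrillar chain of soft and distensible tissue, had 504, 525 and 513 FPKM in ISRIB and 573, 546 and 556 FPKM in Control. Every ISRIB library lay below every Control library. The mean was 514 ± 10.7 FPKM in ISRIB and 558 ± 13.5 FPKM in Control (SD, n = 3 each). Its log2 fold change was -0.12 (SE 0.0401; limma adjusted p = 0.216). Col1a2, a chain of type I collagen, the main collagen of fibrous stroma, had 352, 356 and 418 FPKM in ISRIB and 330, 361 and 385 FPKM in Control. Its partner chain Col1a1 had 285, 299 and 331 FPKM in ISRIB and 299, 281 and 310 FPKM in Control. Both overlapped between the groups, with log2 fold changes of 0.06 and 0.04 that turned to -0.04 and -0.04 under quantile normalization, and Col1a1 also turned to -0.01 when values were rescaled to a common sum (limma adjusted p = 0.742 and 0.804). The intervals were -0.12 to 0.25 for Col1a2 and -0.11 to 0.19 for Col1a1.

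Col5a1, a chain of type V collagen that sets the start and width of type I fibrils, had 189, 166 and 182 FPKM in ISRIB and 165, 168 and 184 FPKM in Control. The groups overlapped, and its log2 fold change of 0.06 (limma adjusted p = 0.704) turned to -0.04 under quantile normalization. Col11a2, a chain of the related type XI collagen known mainly from cartilage, had the highest log2 fold change of its class, at a low level. It had 1.28, 1.44 and 1.66 FPKM in ISRIB and 1.05, 1.04 and 1.24 FPKM in Control, from 360 to 465 and 283 to 369 reads. All ISRIB libraries lay above all Control libraries, by a narrow margin between the nearest pair, and the log2 fold change was 0.28 (SE 0.121; limma adjusted p = 0.299). Of 10 cartilage and bone markers, the transcription factor Sox9 had 4.05 ± 0.688 FPKM in ISRIB and 4.26 ± 0.384 FPKM in Control, and Runx2 had 0.979 ± 0.250 FPKM in ISRIB and 1.18 ± 0.231 FPKM in Control, both overlapping. Bglap and Sox5 averaged 0.803 and 0.708 FPKM over the 6 libraries, and Acan, Matn1, Matn3, Sox6, Sp7 and Ibsp were under 0.5 FPKM. Their part in the Col11a2 value was not tested. The remaining fibrillar genes Col5a2, Col5a3, Col11a1, Col24a1 and Col27a1 had log2 fold changes of -0.12 to 0.26 with overlapping libraries. Among them Col27a1 at 0.26 and Col24a1 at 0.22 lay near the value of Col11a2.

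The basement membrane genes lay together on the lower side. All 5 tested type IV genes and both multiplexins had a log2 fold change below 0, in 4 of the 7 without overlap between libraries. Of all tested genes 48.2% were below 0 and 12.0% lay below Control in every library, and of the 29 other tested collagen genes 12 were below 0. Without the length trend 6 of the 7 were below 0, as were 51.4% of all tested genes. Col4a1, 1 of the chains found in nearly every basement membrane, had 271, 259 and 257 FPKM in ISRIB and 286, 289 and 285 FPKM in Control. Its obligate partner Col4a2 had 169, 158 and 164 FPKM in ISRIB and 179, 179 and 181 FPKM in Control. For both genes every ISRIB library lay below every Control library, and the Control libraries lay close together. The log2 fold change was -0.13 for Col4a1 (SE 0.0386; limma adjusted p = 0.181) and -0.14 for Col4a2 (SE 0.0391; limma adjusted p = 0.163). These genes lie head to head on chr8, at 11198423 to 11312826 on the minus strand and 11312805 to 11449287 on the plus strand of GRCm38, so their first exons share 22 bases. That overlap is 0.3% of the exonic length of Col4a1.

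The other type IV chains form networks limited to certain basement membranes. Col4a5 had 16.1, 16.4 and 17.3 FPKM in ISRIB and 17.8, 17.6 and 16.9 FPKM in Control, with a log2 fold change of -0.07 (limma adjusted p = 0.556). Col4a4 had 1.87, 2.34 and 1.96 FPKM in ISRIB and 2.28, 2.61 and 2.17 FPKM in Control, with a log2 fold change of -0.16 (limma adjusted p = 0.505). Both overlapped between the groups, as did Col4a6, at 4.34 ± 0.451 FPKM in ISRIB and 4.40 ± 0.152 FPKM in Control. The sign of Col4a6, -0.02, turned to 0.02 without the length trend. Summed, type IV genes came to 463, 440 and 446 FPKM in ISRIB and 490, 493 and 490 FPKM in Control, with no overlap. Most of each sum came from Col4a1 and Col4a2, so it mainly repeats the values of those genes.

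Col18a1 and Col15a1 encode the multiplexins, collagens of vessel and epithelial basement membranes whose C-terminal fragments are endostatin and its relative restin. Col15a1, at chr4:47208161-47313167, had 61.4, 65.1 and 54.6 FPKM in ISRIB and 81.2, 69.7 and 72.0 FPKM in Control. Col18a1, at chr10:77052178-77166548, had 67.6, 63.8 and 55.2 FPKM in ISRIB and 75.0, 75.0 and 68.8 FPKM in Control. Neither overlapped between the groups, and ISRIB replicate 3 was the lowest library for both. The log2 fold change was -0.30 for Col15a1 (SE 0.0789; limma adjusted p = 0.137). For Col18a1 it was -0.23 (SE 0.0765; limma adjusted p = 0.207), and -0.15 without ISRIB replicate 3.

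Other parts of the basement membrane ran alongside these chains. Of 15 genes for laminin chains, nidogens, perlecan and related partners, 14 had a log2 fold change below 0 and 6 lay below Control in every library, where 48.2% and 12.0% of all tested genes did. Their median was -0.12 beside 0.01 for all tested genes, and -0.07 beside -0.00 without the length trend. Their summed level was 767 to 817 FPKM in ISRIB and 863 to 906 FPKM in Control. The 1 member above 0 was Smoc2, with 23.0, 28.2 and 36.2 FPKM in ISRIB and 14.5, 18.1 and 24.5 FPKM in Control. Its libraries overlapped between the groups, and its log2 fold change of 0.61 was the largest of the list (SE 0.206, limma adjusted p = 0.215). Lamc1, the laminin gamma chain shared by most laminins, had 80.4, 81.7 and 79.2 FPKM in ISRIB and 94.9, 97.6 and 94.5 FPKM in Control (log2 fold change -0.25, SE 0.0370; limma adjusted p = 0.0799). Nid1, which links laminin to type IV collagen, had 122, 132 and 126 FPKM in ISRIB and 149, 153 and 151 FPKM in Control (log2 fold change -0.25, SE 0.0410; limma adjusted p = 0.0832). The groups did not overlap for either gene. Neither passed with limma on FPKM. Both did with voom on reads, which called 0.929% of tested genes (adjusted p = 0.0259 for Lamc1 and 0.0297 for Nid1). Without the length trend the log2 fold changes on FPKM were -0.20 for Lamc1 and -0.22 for Nid1.

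Endothelial markers were lower in value beside the basement membrane genes, and markers of the vessel wall were mixed. All 12 endothelial markers had a log2 fold change below 0, with a median of -0.16, and 5 lay below Control in every library, where 12.0% of all tested genes did. The endothelial cadherin Cdh5 had 32.1, 37.2 and 35.6 FPKM in ISRIB and 41.1, 41.6 and 44.3 FPKM in Control (log2 fold change -0.27; limma adjusted p = 0.119). The VEGF receptor Kdr had 21.4, 20.9 and 22.4 FPKM in ISRIB and 24.6, 25.0 and 26.0 FPKM in Control (log2 fold change -0.22; limma adjusted p = 0.109). Endothelial markers summed to 219 to 254 FPKM in ISRIB and 254 to 282 FPKM in Control, and 11 pericyte and smooth muscle markers to 114 to 121 FPKM in ISRIB and 124 to 136 FPKM in Control, 7 of them below 0 and 4 above. The 9 surface epithelium markers were also all below 0, with a median of -0.11 and overlapping sums of 248 to 257 FPKM in ISRIB and 248 to 314 FPKM in Control. No marker in these 3 lists passed an adjusted p of 0.05 (limma), and 4, 6 and 0 had an unadjusted p under 0.05, beside 7.73% of all tested genes lower and 8.71% higher at that threshold. Of the 6 in the pericyte and smooth muscle list, 4 were lower and 2 higher. With voom on reads, which called 0.929% of tested genes, the pericyte genes Abcc9, Mcam and Cspg4, all lower, passed (adjusted p = 0.0259, 0.0428 and 0.0447). The contractile genes of smooth muscle had values above 0, with log2 fold changes of 0.26 for Tagln, whose ISRIB libraries all lay above Control, 0.21 for Acta2, 0.21 for Cnn1 and 0.07 for Myh11 (voom adjusted p = 0.261, 0.236, 0.510 and 0.710). The part of these cell types in the collagen values was not tested. In RNA of whole ovaries, fewer cells of a type and less RNA per cell cannot be told apart.

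FACIT collagens held the collagen gene with the smallest p. Col12a1, whose protein lies on type I fibrils and bridges them to other matrix, lies at chr9:79598991-79718831 on the minus strand. It had 11.0, 10.5 and 9.86 FPKM in ISRIB and 16.8, 14.6 and 15.3 FPKM in Control, from 5037 to 5678 and 7945 to 8304 reads. The highest ISRIB library lay well below the lowest Control library. The mean was 10.5 ± 0.587 FPKM in ISRIB and 15.6 ± 1.10 FPKM in Control (SD, n = 3 each), and the log2 fold change was -0.55 (SE 0.0688, 95% interval -0.71 to -0.39). Its limma p was 4.5e-05, place 9 among the 12922 genes, and its adjusted p was 0.0618, just short of 0.05.

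Col12a1 was the 1 collagen gene that passed under other settings, in each case against a small background. Its adjusted p was 0.0189 when the recovered reads were tested by voom in limma, which called 0.929% of tested genes. It was 0.0497 after rescaling to a common sum, which called 0.147%, and 0.0433 among genes of at least 5 FPKM, where 0.0873% were called. It was larger in other settings, at 0.201 with no filter on low values and 0.120 with no intensity trend (limma adjusted p). Leaving out 1 library at a time gave log2 fold changes of -0.59 to -0.50, with limma adjusted p of 0.0624 to 0.274.

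Col14a1, a FACIT of dense fibrous matrix, had 2.99, 2.60 and 2.77 FPKM in ISRIB and 3.74, 3.81 and 3.46 FPKM in Control. The groups did not overlap, and the log2 fold change was -0.34 (SE 0.0836; limma adjusted p = 0.122). Col9a2, a chain of the type IX collagen that coats cartilage fibrils, and Col16a1 were the FACIT genes of highest level, with overlapping ranges. Col9a2 had 29.2, 30.0 and 30.9 FPKM in ISRIB and 29.4, 34.3 and 29.7 FPKM in Control (log2 fold change -0.05; limma adjusted p = 0.753). Col16a1, a FACIT of fibril-rich and microfibril-rich matrix, had 27.8, 30.6 and 32.9 FPKM in ISRIB and 28.7, 27.8 and 29.8 FPKM in Control (log2 fold change 0.08; limma adjusted p = 0.597). Both overlapped between the groups, as did Col9a3 and Col20a1 with log2 fold changes of 0.10 and 0.24. The longest run was 32 triplets in each of Col12a1, Col14a1 and Col20a1, of which the last lay on the other side of 0. The FACIT class thus had 3 genes below and 3 above 0.

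**Figure D3:**
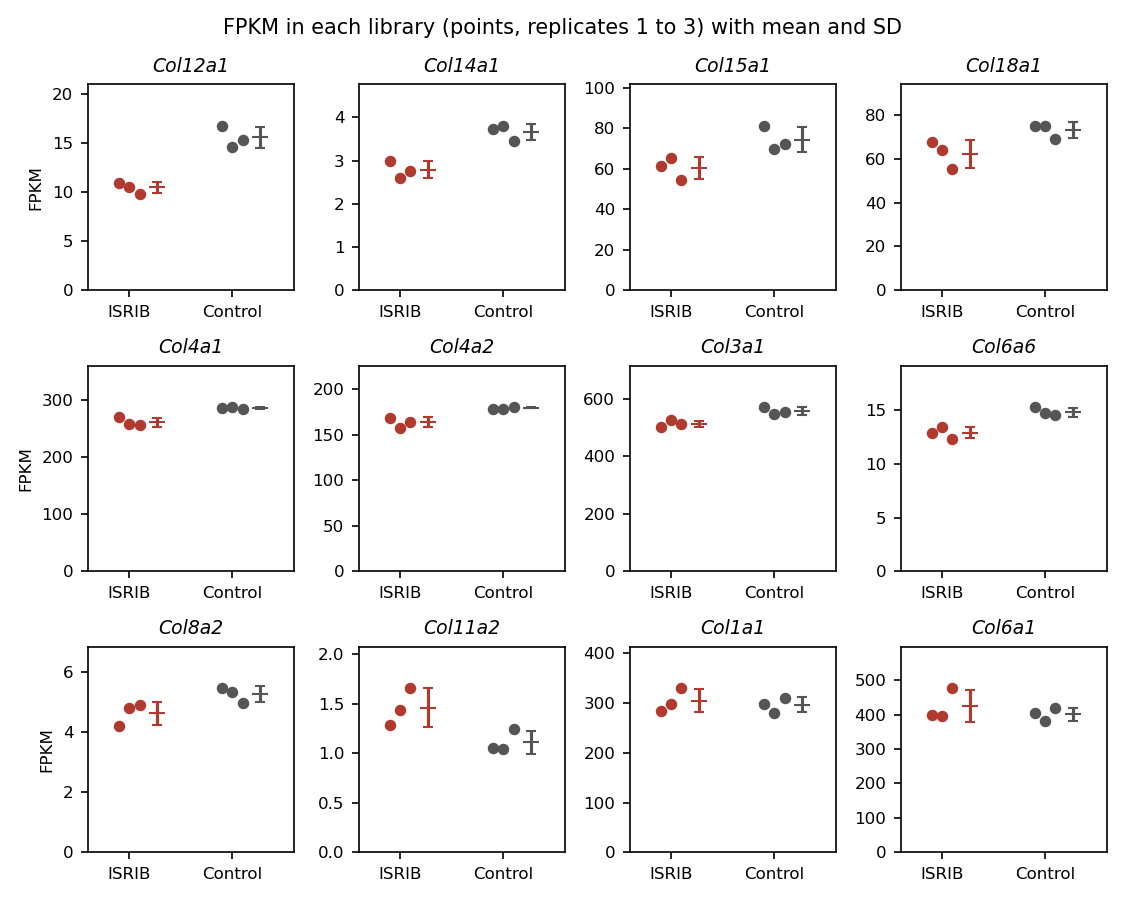
FPKM of 12 collagen genes in each library (points, replicates 1 to 3; y axes start at 0), with the mean and SD of each group beside them, ISRIB left of Control. Col12a1 shows the widest gap relative to its level, at 9.86 to 11.0 FPKM in ISRIB and 14.6 to 16.8 in Control, while Col1a1 and Col6a1 overlap.

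Type VI collagen was the second class by level and its main chains did not separate the groups. Col6a1, a short chain of the core heterotrimer, had 398, 396 and 478 FPKM in ISRIB and 405, 381 and 418 FPKM in Control. Col6a2, the other short chain, had 325, 302 and 368 FPKM in ISRIB and 310, 282 and 325 FPKM in Control. ISRIB replicate 3 was the highest library for both, and the groups overlapped. Their log2 fold changes of 0.07 and 0.12 became -0.08 and -0.00 under quantile normalization (limma adjusted p = 0.668 and 0.509).

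Col6a6 differed from these core chains. It encodes a long chain that can take the place of Col6a3 in the trimer, and had 12.9, 13.4 and 12.3 FPKM in ISRIB and 15.3, 14.7 and 14.5 FPKM in Control. All ISRIB libraries lay below all Control libraries, with a log2 fold change of -0.20 (SE 0.0532; limma adjusted p = 0.145). Col6a3 itself had 56.6, 54.2 and 72.2 FPKM in ISRIB and 53.2, 50.2 and 61.5 FPKM in Control, with replicate 3 highest in both groups. Its log2 fold change was 0.14, and 0.02 to 0.23 when 1 library at a time was left out (limma adjusted p = 0.571 with all libraries). Col6a4 and Col6a5, the other long chains, overlapped between the groups with log2 fold changes of 0.11 and -0.02, and Col6a5 turned to 0.04 without the length trend.

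The smaller classes held few genes at low level. Col8a2 and Col8a1, short chains of a hexagonal network made by endothelial cells, both had log2 fold changes below 0. Col8a2 had 4.20, 4.82 and 4.90 FPKM in ISRIB and 5.49, 5.33 and 4.97 FPKM in Control (log2 fold change -0.17, SE 0.0805; limma adjusted p = 0.342). Col8a1 had 2.25, 1.71 and 1.49 FPKM in ISRIB and 2.61, 2.20 and 2.10 FPKM in Control (log2 fold change -0.28, SE 0.140; limma adjusted p = 0.352). The groups did not overlap for Col8a2 and overlapped for Col8a1 through ISRIB replicate 1. Col7a1, the anchoring fibril chain of skin, had 1.29, 1.13 and 1.14 FPKM in ISRIB and 1.20, 1.15 and 0.888 FPKM in Control (log2 fold change 0.10; limma adjusted p = 0.731). The membrane-spanning collagens Col23a1 and Col13a1 had 14.5 ± 1.56 and 10.9 ± 0.0877 FPKM in ISRIB and 13.9 ± 1.43 and 10.1 ± 1.20 FPKM in Control, with overlap. Col26a1, a collagen known from testis and ovary, had 17.3, 18.1 and 17.5 FPKM in ISRIB and 17.0, 18.3 and 21.3 FPKM in Control (log2 fold change -0.09; limma adjusted p = 0.603).

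Summed by class, the composition of the collagen RNA differed by at most 1.99 percentage points between the group means, in the beaded filament class. Type IV genes made up 15.8%, 15.1% and 14.1% of collagen FPKM in ISRIB and 16.2%, 16.7% and 15.7% in Control, where only ISRIB replicate 1 reached into the Control range. The multiplexins made up 4.40%, 4.43% and 3.47% in ISRIB and 5.15%, 4.90% and 4.52% in Control, without overlap. Fibrillar genes made up 48.1% ± 0.586 in ISRIB and 48.0% ± 0.387 in Control (SD, n = 3 each). Beaded filament genes made up 27.8%, 26.9% and 30.1% in ISRIB and 26.5%, 25.4% and 26.9% in Control, where the lowest ISRIB library and the highest Control library met at 26.9%.

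**Figure D4:**
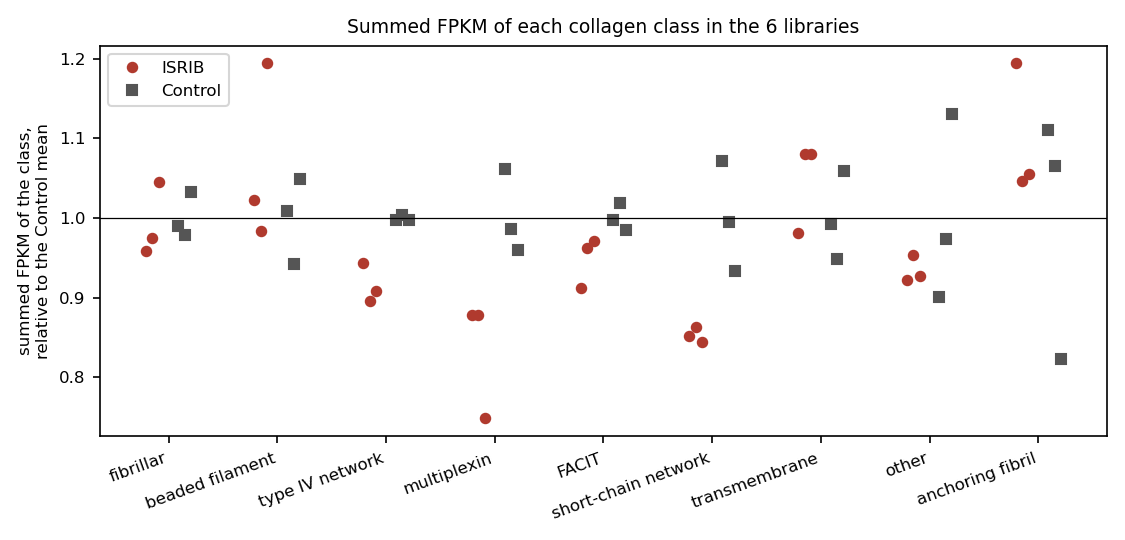
Summed FPKM of each collagen class in each library, divided by the Control mean of that class (y axis), with ISRIB as circles left of Control as squares. Type IV, multiplexin, FACIT and short-chain sums lie lower in every ISRIB library than in any Control library, and fibrillar and beaded filament sums overlap. The FACIT sums average 83.6 FPKM in ISRIB and 88.1 FPKM in Control, and Col12a1 alone averages 10.5 and 15.6 FPKM. Of the 6 tested FACIT genes 3 had a log2 fold change above 0, so the lower sum does not describe the class as a whole.

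Chains of the same collagen type were compared as ratios within each library, which do not depend on library size. The pairs assemble together, except Col6a6 and Col6a3, where Col6a6 can take the place of Col6a3. Of 6 ratios, the smallest p from a two-sided exact permutation test was 0.2, where 3 against 3 libraries allow no p below 0.1. The ratio of Col4a1 to Col4a2 was 1.61, 1.64 and 1.57 in ISRIB and 1.59, 1.61 and 1.58 in Control, with overlap between the groups. The ratio of Col1a1 to Col1a2 was 0.811, 0.839 and 0.792 in ISRIB and 0.906, 0.777 and 0.805 in Control. The ratio of Col6a6 to Col6a3 differed most, at 0.229, 0.247 and 0.171 in ISRIB and 0.288, 0.293 and 0.235 in Control. Its log2 difference was -0.35, with overlap at replicate 3 of Control and replicate 2 of ISRIB (exact permutation p = 0.2, adjusted over the 6 ratios 0.75), and it was -0.19 without ISRIB replicate 3. The ratios of Col5a1 to Col5a2, Col6a1 to Col6a2 and Col6a3 to Col6a1 had log2 differences of 0.08, -0.04 and 0.07 (exact permutation p = 0.5, 0.5 and 0.3, adjusted 0.75 each).

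Gene length ran with the fold change in these libraries, and collagen genes are long. The length implied by the FPKM was 6664 bases at the median of the tested collagen genes (2780 to 14312), against 3549 bases for all tested genes, and 34 of the 36 were longer than that. The longest 20% of all tested genes, from 6590 bases, had a median log2 fold change of -0.06, the shortest 20% had 0.08, and 19 collagen genes lay among the longest 20%. Removing the trend with length by a loess curve moved the collagen fold changes by -0.03 to 0.07. Without the trend, Col12a1, the longest of them at 14312 bases, was at -0.48 (limma adjusted p = 0.0948). With voom and the trend removed it had an adjusted p of 0.0313, where 0.178% of tested genes were called.

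Without the length trend, Col15a1 was at -0.28, Col18a1 at -0.19, Col4a2 at -0.10, Col4a1 at -0.09, Col3a1 at -0.09 and Col14a1 at -0.30. All ISRIB libraries lay below all Control libraries in 8 collagen genes, against 10.8% of all tested genes, and Col18a1 was the gene whose libraries then overlapped. All ISRIB libraries lay above all Control libraries in 3 collagen genes, Col11a2, Col13a1 and Col20a1, against 9.02% of all tested genes, where 1 did with the trend in place. The medians were -0.09 for type IV genes, -0.23 for multiplexins and 0.08 for fibrillar genes, beside -0.00 for all tested genes.

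**Figure D5:**
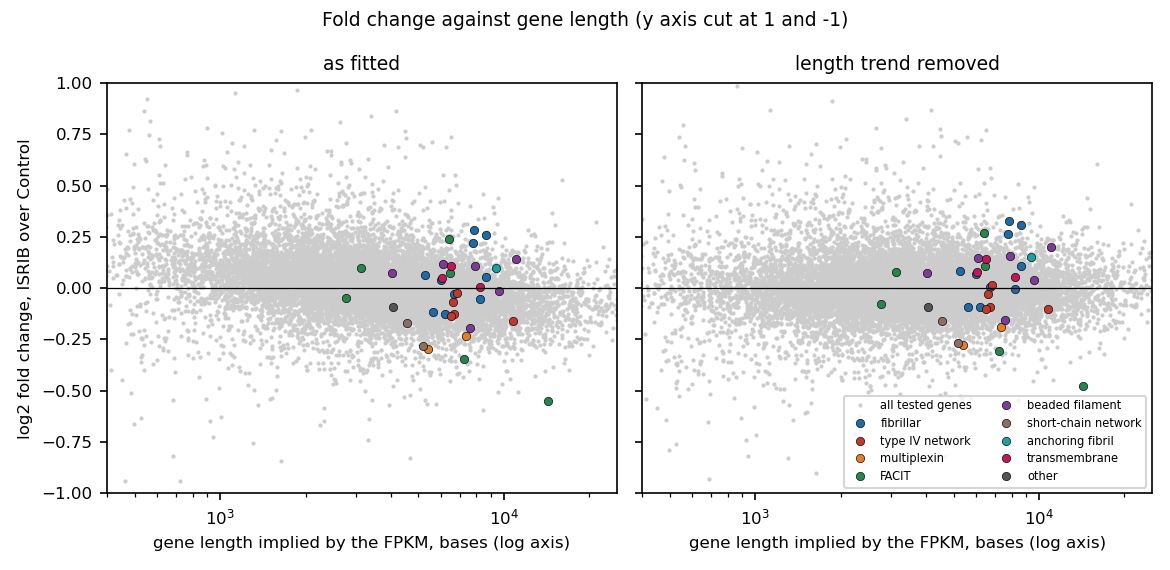
Log2 fold change of ISRIB over Control (y axis) against the gene length implied by the FPKM (x axis, bases, log scale), as fitted on the left and with the length trend removed on the right, with all tested genes in grey and collagen genes coloured by class. Most collagen genes lie right of the median gene of 3549 bases, and Col12a1 stays lowest among them at -0.55 on the left and -0.48 on the right.

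Genes for the making and handling of collagen chains, mainly in the endoplasmic reticulum, had more values above 0 than below. Of 22 tested genes for enzymes, chaperones and related factors, 14 had a log2 fold change above 0, as did 51.8% of all tested genes. In every library 6 of the 22 lay above Control, as did 10.8% of all tested genes. The median was 0.06, beside 0.01 for all tested genes, and 0.04 beside -0.00 without the length trend. Among the 8 below 0 was P4ha3, at -0.39 with overlapping libraries (limma adjusted p = 0.297). P4ha2, a prolyl 4-hydroxylase subunit that stabilises the triple helix, had 22.9, 20.7 and 22.6 FPKM in ISRIB and 14.3, 12.1 and 14.9 FPKM in Control (log2 fold change 0.67; limma adjusted p = 0.0618). Plod2, a lysyl hydroxylase of cross-link sites, had 23.6, 19.5 and 23.6 FPKM in ISRIB and 16.7, 14.8 and 17.2 FPKM in Control (log2 fold change 0.44; limma adjusted p = 0.0995). Neither overlapped between the groups. Neither passed with limma on FPKM. Both did with voom on reads, which called 0.929% of tested genes (adjusted p = 0.0189 for P4ha2 and 0.0387 for Plod2).

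Outside the cell, values were mixed. Of 4 procollagen proteinases and enhancers 3 were below 0, and of 4 cross-linking oxidases 2 were, with Loxl1 at -0.15 (limma adjusted p = 0.159). Of 17 fibril-associated proteoglycans and glycoproteins 12 were below 0, with a median of -0.10, among them Tnxb, the tenascin of collagen fibrils, at -0.30 (limma adjusted p = 0.136). In the other direction Ogn, a small leucine-rich proteoglycan, was at 0.46 with all ISRIB libraries above Control (limma adjusted p = 0.161). Of 8 collagen receptors 7 were below 0, with the integrin chain Itgb1 at 133, 132 and 135 FPKM in ISRIB and 142, 141 and 142 FPKM in Control (log2 fold change -0.09; limma adjusted p = 0.278). Of 6 degrading proteases and inhibitors 4 were below 0, and Timp3, a matrix-bound inhibitor of metalloproteinases, had 37.5, 38.7 and 36.6 FPKM in ISRIB and 45.7, 44.3 and 41.8 FPKM in Control (log2 fold change -0.22; limma adjusted p = 0.113). Of 15 TGF-beta ligands and targets, a pathway that drives collagen synthesis, 9 were below 0.

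Stroma markers summed to 551 to 646 FPKM in ISRIB and 575 to 612 FPKM in Control, with a median log2 fold change of -0.01 over 14 genes. The largest parts of this sum were Mfap4 and Wt1, with means of 155 and 138 FPKM over the 6 libraries. The mesenchymal receptor Pdgfrb was lower in every ISRIB library, at 24.0, 25.4 and 24.2 FPKM in ISRIB and 31.4, 31.1 and 30.2 FPKM in Control. Its log2 fold change was -0.33 (limma adjusted p = 0.0799). With voom on reads, which called 0.929% of tested genes, its adjusted p was 0.0191. Granulosa markers summed to 768 to 925 FPKM in ISRIB and 675 to 800 FPKM in Control, with 8 of 11 above 0, and oocyte markers to 1845 to 2101 FPKM in ISRIB and 1702 to 1911 FPKM in Control, with 10 of 14 above 0. Leukocyte markers summed to 51.4 to 56.0 FPKM in ISRIB and 53.3 to 58.4 FPKM in Control, and theca markers to 44.2 to 50.5 FPKM in ISRIB and 48.6 to 77.0 FPKM in Control, both overlapping. The theca sum was mostly Hsd3b1, with a mean of 43.6 FPKM over the 6 libraries, while Cyp17a1 and Lhcgr averaged 0.21 and 0.422 FPKM. Only 3 of the 6 theca markers were tested. Oviduct and mesonephric markers summed to 26.5 to 32.3 FPKM in ISRIB and 28.0 to 32.5 FPKM in Control. That sum was mostly Epcam, with a mean of 23.9 FPKM over the 6 libraries, and only 2 of the 6 markers were tested. The part of all these cell types in the collagen values was not tested.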

How the data were processed

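Total RNA of cultured mouse ovaries was sequenced after column isolation and a universal RNA-seq library kit, per the labels' protocols. The values deposited by the authors are FPKM, 1 column per library. Per the submitters' processing notes, HISAT2, HTSeq, fastp, DESeq2 and R 3.2.0 were used with the build mm10; their roles are not stated. Annotation, strand setting and the library total behind the FPKM were not given in the sources used here. Overlapping genes may therefore share reads, and the largest exonic overlap of a collagen gene with another gene in GENCODE M21 was 6.1% (Col9a3).

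Whole reads were recovered from the FPKM of every gene (100.0% whole, tolerance 0.01 read). They gave depth and implied gene length, and 1 FPKM at the median length was 122.3 reads in the shallowest library. Replicates differed beyond sampling noise in every pair. The limit of 3 reads for a count of 0 covers counting error only.

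Groups came from sample titles. log2(FPKM + 0.5) was fitted for genes averaging 1 FPKM or more, with limma 3.58.1 in R 4.3.3 (trended empirical Bayes, two-sided, Benjamini-Hochberg over 12922 genes, adjusted p under 0.05). The script was tested on simulated data. Alternatives were other pseudocounts, filters and scalings, voom on recovered reads, a loess length correction (span 0.5), a replicate block and leaving out each library. Tables and figures used Python 3.11.15, pandas 2.3.3 and matplotlib 3.10.9.

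The members, classes and gene lists were chosen with earlier results of these data known. Genes named were the 10 collagen genes of smallest p, the 8 of highest level, 2 of each class and up to 2 of each other list. The remaining collagen genes, Foxl2, Ddx4, Cspg4, Ogn, the smooth muscle genes and the low cartilage and bone markers were added after their values were seen. So were Smoc2, P4ha3, Cyp17a1, Lhcgr, Mfap4 and Wt1. Glycine triplets were counted as in-frame codons starting GG in the longest coding transcript of each of the 44 genes.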

Additional observations from a re-analysis of the deposited data

How the results depend on the processing

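The number of genes called out of all tested was 0 with limma on FPKM, against 2125 at an unadjusted p under 0.05. It was 8 among genes of at least 5 FPKM, 19 after rescaling to a common sum, 120 with voom on recovered reads, 23 with voom and the length trend removed, 11 with a replicate block, and 5 with the block and the length trend removed, which was added after seeing the data. The collagen genes called were 0 in limma on FPKM and 1, Col12a1, in each of the first 4 of these alternatives. For genes of the other lists, the voom values given were with the length trend in place. The replicate numbers did not pair libraries (correlations of deviations -0.19, -0.0909 and 0.192), and with the block Col12a1 had a limma adjusted p of 0.0546 and 0 collagen genes passed. The median log2 fold change of collagen genes was -0.07 after rescaling, which moved the median of all genes to -0.04, and 0.03 without the length trend, whether on FPKM, with voom or with the block. Collagen genes below 0 numbered 17 to 22 when 1 library was left out. Of 36 genes, 23 kept their sign in every alternative that gave them a value, 14 of them in all 19 and the rest in those other than the filter at 5 FPKM. Leaving out 1 library moved the type IV share difference between -1.60 and -0.75 percentage points, that of multiplexins between -0.929 and -0.446, and that of beaded filament genes between 1.10 and 2.65. Depth limits the 8 untested genes, at no more than 252 reads a library.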
